A study of Homo sapiens with 13 samples.

Results

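MYC, MAX and the MXD proteins form a network of transcription factors. The 10 protein-coding genes described here encode members of it, though not all: MYC, MYCL, MYCN, MAX, MXD1, MXD3, MXD4, MNT, MGA and MLX. They were taken by name from the 20033 protein-coding genes of the GENCODE version 44 annotation of hg38, together with every peak in the gene or up to 20 kb either side. This gave 27 of 9370 PTBP1 peaks and 18 of 7688 RUNX1 peaks. The study asked whether PTBP1, a regulator of splicing with affinity for pyrimidine-rich RNA, shares chromatin with RUNX1, a transcription factor of blood cells that contacts DNA through its Runt domain. All 13 libraries came from MOLM-13, a cell line grown from human acute myeloid leukemia. CUT&Tag, where a tethered transposase cuts and tags DNA beside the antibody target, gave 2 libraries for PTBP1, 2 for RUNX1 and 1 for IgG, the control. CUT&RUN, where a tethered nuclease does the cutting, gave 2 libraries each for PTBP1, RUNX1, IgG and the repressive histone mark H3K27me3. The cells carried no treatment or genetic change named in the labels, and 1 cell line limits what the peaks describe.

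Proteins of this network bind DNA in pairs. MYC, MYCL and MYCN pair with MAX and promote transcription of genes for growth, ribosomes and metabolism, whereas MXD1, MXD3, MXD4 and MNT pair with MAX at the same E-box sites and recruit histone deacetylases. MGA joins MAX to a Polycomb-type complex, and MLX pairs with the sugar-sensing Mondo proteins and with some of the MXD proteins. High MYC activity is common in acute leukemia, and MXD1 is known for rising as myeloid cells mature.

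The measurements came from 1 peak list for PTBP1 and 1 for RUNX1, with no replicate column, so no spread between libraries could be given and no test was made. Libraries were not analysed one by one here. Fold enrichment was the fragment count at a peak's highest point, the summit, over the background, after adding 1 to both. Its median was 12.2 over all PTBP1 peaks and 15.0 over all RUNX1 peaks. Summits held a median of 21 PTBP1 and 20 RUNX1 fragments, and the weakest listed peaks held 11 and 8, so sites below those counts were not detectable. The usual background was 0.720 fragments for PTBP1 and 0.330 for RUNX1, and a peak whose background was over 1.5 times the usual was called raised, as at 455 PTBP1 and 395 RUNX1 peaks. Since the backgrounds differed, a fold in one list was not comparable in size with a fold in the other. For the cell type, a peak of either list lay in or at the start of 6 of 10 myeloid genes, 0 of 5 T cell genes, 2 of 5 B cell genes and 1 of 5 erythroid genes, beside 39.6% of all protein-coding genes. At the 5′ end, 2 of the 10 myeloid genes (ITGAM, 11.3-fold, and FCER1G, 14.3-fold) had a RUNX1 peak and 0 had a PTBP1 peak, while the erythroid gene EPOR had both, at 33.1-fold for RUNX1 and 9.30-fold for PTBP1. PAX5, of B cells, had 2 PTBP1 and 3 RUNX1 peaks in the gene. A peak is not a measure of expression.

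Both proteins had peaks at the start sites of 5 or 7 of the 10 genes, depending on which start was used. At the gene 5′ end, with 1000 bases allowed either side, 5 of the 10 genes had a PTBP1 peak (MYC, MYCL, MXD3, MNT and MLX), against 26.4% of all protein-coding genes. The same 5 genes and MGA made 6 genes with a RUNX1 peak there, against 21.3%. Both lists had a peak at the 5′ end of 5 genes, against 17.3%. The start of the canonical transcript, the one the annotation treats as most representative, lay 17421 bases inside MXD1 and 39271 bases inside MGA. Counted at canonical starts, PTBP1 had a peak at 7 of the 10 genes, against 27.5% of all genes, and RUNX1 at 7, against 22.4%. They were the same 7 genes (the 5 above, MXD1 and MGA), and both lists reached 18.2% of all genes. MAX and MXD4 had peaks in their windows but at neither kind of start. MYCN had none in its window.

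**Figure D1:**
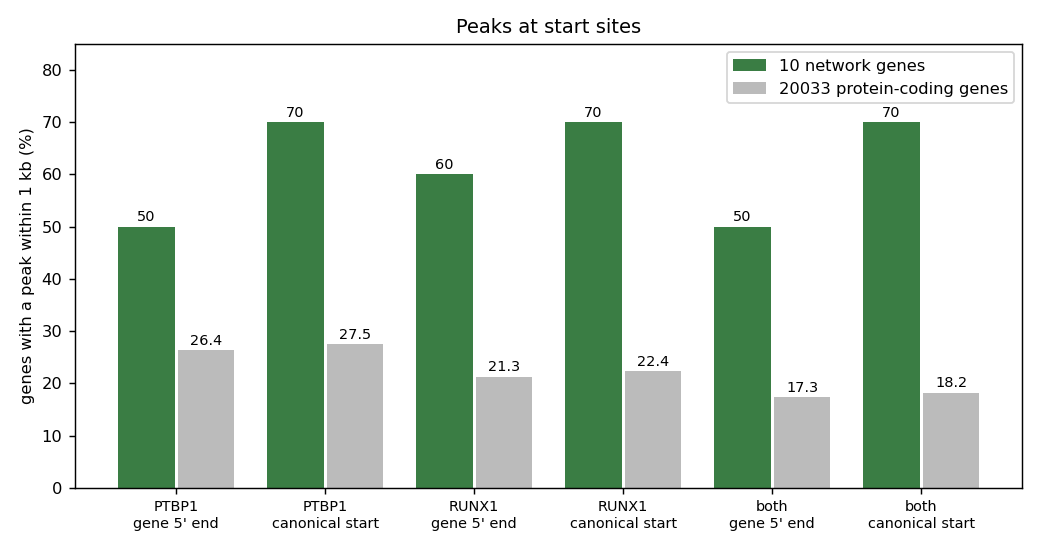
Bars give the share of genes (%, vertical axis) with a peak within 1 kb of the gene 5′ end or of the canonical transcript start, for PTBP1, RUNX1 or both. Green bars are the 10 network genes and grey bars all 20033 protein-coding genes, and both lists reached 7 of the 10 network genes at the canonical start against 18.2% of all genes.

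Over the whole windows, 9 of the 10 genes had a peak of both lists, against 34.3% of protein-coding genes. A gene had a mean of 2.7 PTBP1 and 1.8 RUNX1 peaks in its window, beside means of 1.08 and 0.682 over all genes, although the windows were shorter, with a median of 53.0 kb against 67.5 kb. The number was uneven, and MYCL alone held 9 of the 27 PTBP1 peaks. By position, 6 PTBP1 peaks lay at the 5′ end of a network gene, 7 in the gene body and 14 outside the gene. The MYCL window held 8 of these outer peaks. Of those 14, 6 lay at the 5′ end of a neighbouring gene. The RUNX1 peaks comprised 6 at the 5′ end, 7 in the gene body and 5 outside, of which 4 lay at the 5′ end of a neighbour. This split by position was not computed over all gene windows, so it is not read as a trait of the network.

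**Figure D2:**
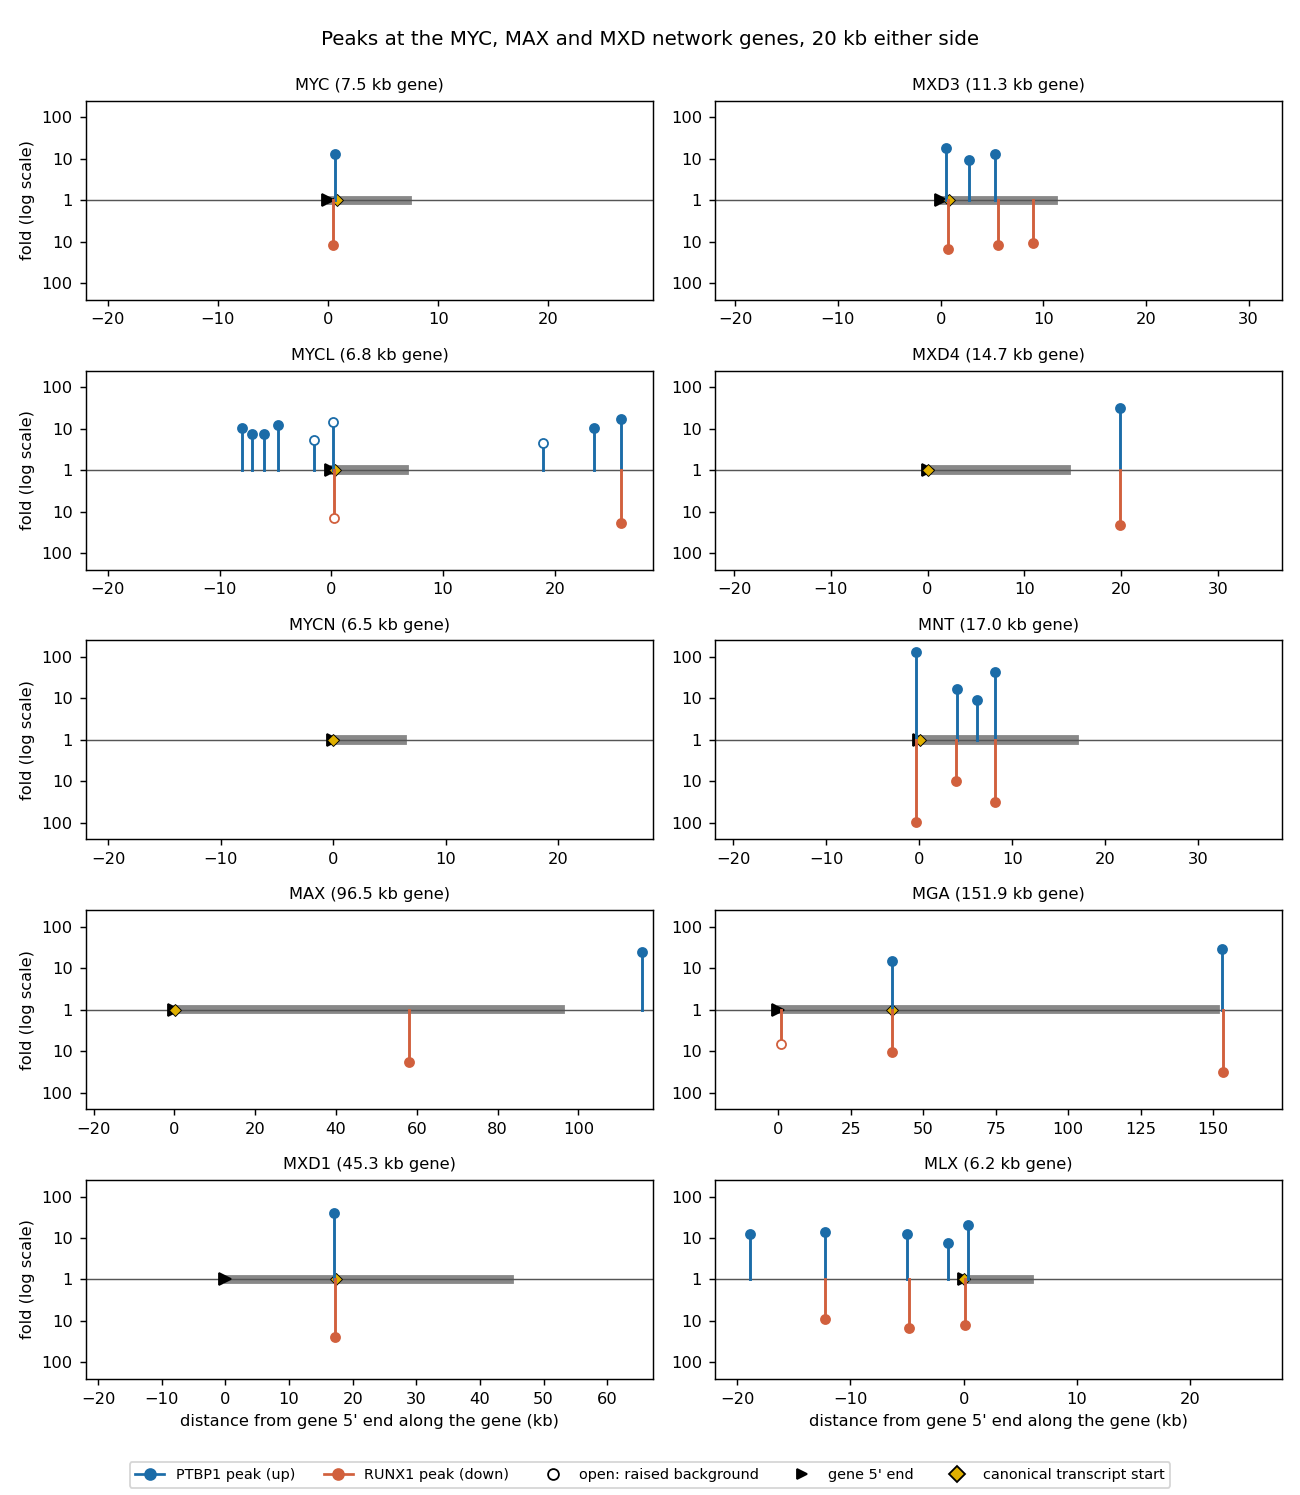
Each panel shows 1 gene (grey bar) with 20 kb either side, the horizontal axis giving the distance from its 5′ end along the gene (kb) and the vertical axis the fold enrichment (log scale) of PTBP1 peaks upward and RUNX1 peaks downward. Open circles mark a raised background, the arrowhead the gene 5′ end and the diamond the canonical transcript start: peaks of MXD1 stood at the diamond, the highest peaks stood at MNT, and MYCN had none.

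MYC, which drives growth and proliferation, had 1 peak of each list, and both lay at its start. The gene (ENSG00000136997.22) spans chr8:127735434-127742951 on the plus strand. The PTBP1 peak, chr8:127735866-127736235, reached 12.8-fold with 21 fragments at the summit. That summit lay 615 bases past the gene 5′ end and 182 bases before the canonical transcript start, in an exon of other MYC transcripts. The RUNX1 peak, chr8:127735122-127736162, reached 12.03-fold with 15 fragments, and its summit lay 157 bases from that of PTBP1. Neither peak was strong in its list: 52.6% of PTBP1 peaks and 32.8% of RUNX1 peaks had a lower fold. Both summits also fell within the annotated span of CASC11, a long non-coding RNA gene beside MYC.

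The surroundings of MYC, a stretch known for distant enhancers, were searched to 2 Mb either side. This stretch held the 5′ ends of 3 protein-coding genes, 5 PTBP1 peaks and 6 RUNX1 peaks. The density was 1.25 PTBP1 peaks per Mb, beside 2.76 over chromosome 8, and 1.5 RUNX1 peaks per Mb, beside 2.65. None of the PTBP1 peaks exceeded the 12.8-fold at MYC itself. All 6 RUNX1 peaks lay downstream of the 5′ end, and 4 of them fell in CCDC26, a long non-coding RNA gene. The highest of the 6, at 15.8-fold, lay in CCDC26 at 999 kb from MYC, with no PTBP1 peak overlapping it. Apart from the gene start, peaks of the lists overlapped once, in PVT1, another non-coding neighbour. There the PTBP1 peak, chr8:128049341-128049637, reached 9.30-fold, and 21.2% of PTBP1 peaks were lower. The RUNX1 peak, chr8:128049516-128050655, reached 9.77-fold, and 15.5% of RUNX1 peaks were lower. These peaks shared only their edges, with summits at 313.955 kb (PTBP1) and 314.728 kb (RUNX1) from the MYC 5′ end. CASC11, PVT1 and CCDC26 were named after their values were seen.

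**Figure D3:**
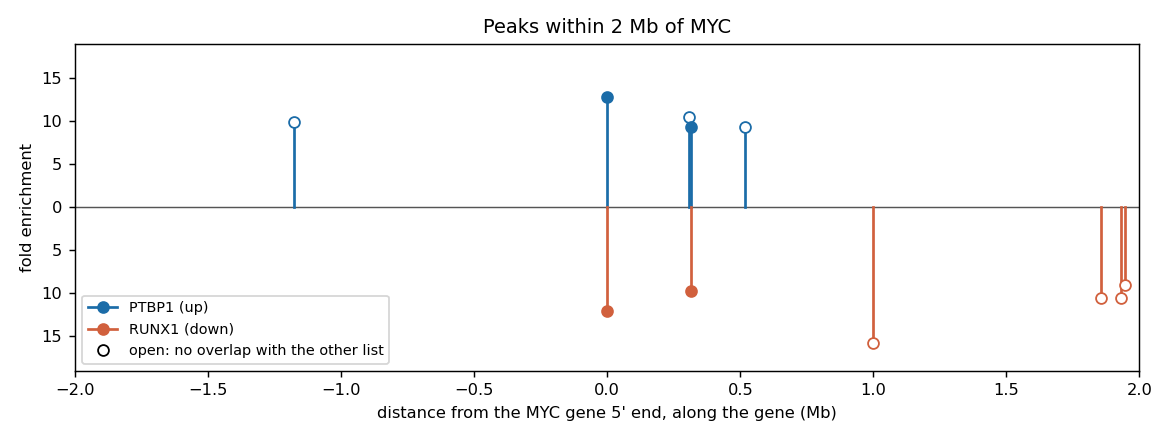
The horizontal axis gives the distance of each summit from the MYC 5′ end (Mb) and the vertical axis fold enrichment, with PTBP1 upward and RUNX1 downward and open circles for peaks that overlap none of the other list. Peaks of the lists overlapped at MYC and, by their edges only, in PVT1, and the highest RUNX1 peak stood at 999 kb with 15.8-fold.

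MYCL, a paralog of MYC first known from lung tumours, had the most peaks of the 10 genes, and most of them were PTBP1 peaks alone. The gene (ENSG00000116990.12) spans chr1:39895428-39902256 on the minus strand, in a stretch with 73 PTBP1 peaks in 1 Mb. The other network genes had from 0 (MYCN) to 30 (MLX) PTBP1 peaks in their 1 Mb. The MYCL window held 9 PTBP1 peaks but 2 RUNX1 peaks, and 1.85% of protein-coding genes had at least 9 PTBP1 peaks in their window. At the 5′ end, the PTBP1 peak chr1:39900655-39903290 reached 14.6-fold with 100 fragments, and the RUNX1 peak chr1:39900931-39902506 reached 14.5-fold with 53. Their summits lay 49 bases apart, 175 and 224 bases past the 5′ end. Both backgrounds were raised there, to 5.93 fragments for PTBP1 and 2.72 for RUNX1.

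Upstream of MYCL, 5 PTBP1 peaks between 1505 and 8031 bases from the 5′ end overlapped no RUNX1 peak. The peak nearest to the gene, at 5.29-fold, had a raised background of 2.97 fragments. The others reached 12.2-fold, 7.56-fold, 7.56-fold and 10.5-fold, in order of distance, on the usual background. Downstream, the PTBP1 peak chr1:39875118-39876919, at 16.9-fold, and the RUNX1 peak chr1:39875454-39876443, at 18.8-fold, had their summits on the same base, 25975 bases along from the 5′ end and at no annotated start. A PTBP1 peak of 4.51-fold lay at the 5′ end of TRIT1, which modifies transfer RNA, with 57 fragments on a raised background of 11.9. The remaining downstream PTBP1 peak reached 10.5-fold. The window of 101 bases centred on the shared downstream summit (hg38, plus strand) is shown because both lists had their summit on its middle base. It held no E-box (CACGTG) and no RUNX motif (TGTGGT or TGCGGT on either strand).
MYCL shared downstream peak, chr1:39876231-39876331: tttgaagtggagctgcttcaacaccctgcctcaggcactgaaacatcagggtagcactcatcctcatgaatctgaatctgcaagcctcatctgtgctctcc

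MYCN, the paralog known from neuroblastoma, was the 1 gene with no peak of either list in its window, like 48.7% of protein-coding genes. The gene (ENSG00000134323.13) spans chr2:15940550-15947007 on the plus strand. No PTBP1 peak lay in its 1 Mb of chromosome 2. The nearest PTBP1 peak lay 3407272 bases from its 5′ end and the nearest RUNX1 peak 4111167 bases away, both downstream. At the lowest listed fragment counts, weaker binding would not have been detectable.

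MAX, the common partner of the MYC, MXD, MNT and MGA proteins, had no peak of either list at its start. The gene (ENSG00000125952.21) spans chr14:65006174-65102695 on the minus strand, and its canonical transcript starts 178 bases inside it. Its RUNX1 peak, chr14:65044688-65045200, reached 18.8-fold with 24 fragments, 57945 bases into the gene and within 1000 bases of the microRNA gene MIR4706. No PTBP1 peak overlapped this RUNX1 peak, whose summit lay outside the canonical transcript. Its PTBP1 peak, chr14:64986727-64987386, reached 25.0-fold with 42 fragments and lay 18788 bases past the end of MAX, at the 5′ end of FNTB, which encodes a farnesyltransferase subunit. MAX was thus the 1 gene of the 10 with peaks of both lists in its window and no overlap between them. The RUNX1 summit window held a RUNX motif 14 bases from the summit (hg38, plus strand, motif in capitals), as did 24.2% of all RUNX1 summit windows.
MAX RUNX1 peak, chr14:65044700-65044800: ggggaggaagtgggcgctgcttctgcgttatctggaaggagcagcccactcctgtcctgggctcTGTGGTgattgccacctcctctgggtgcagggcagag

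Among the MAX partners that oppose MYC, the peaks lay at the start of MXD1, at the start and within the body of MXD3, and outside MXD4. MXD1, which rises as myeloid cells differentiate, had 1 peak of each list, and both lay in the gene body by the rule of the gene 5′ end. The gene (ENSG00000059728.11) spans chr2:69897688-69942945 on the plus strand. The PTBP1 peak, chr2:69914287-69915293, reached 39.5-fold with 67 fragments, and 93.7% of PTBP1 peaks were lower. The RUNX1 peak, chr2:69914347-69915159, reached 24.8-fold with 32 fragments, and 77.7% of RUNX1 peaks were lower. These summits lay 82 bases apart, 311 and 229 bases before the canonical start, which is 17421 bases from the gene 5′ end. A canonical start over 1000 bases from the gene 5′ end was annotated for 16.6% of protein-coding genes, and 1.87% had both peaks at such a start and not both at the 5′ end.

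MXD3, a MAX partner associated with dividing cells, had 3 peaks of each list. The gene (ENSG00000213347.11) spans chr5:177301461-177312757 on the minus strand. At the 5′ end, the PTBP1 peak chr5:177311487-177313113 reached 18.6-fold with 31 fragments and the RUNX1 peak chr5:177311703-177312890 reached 15.0-fold with 19, their summits 143 bases apart. A second overlapping pair lay near the middle of the gene, where PTBP1 reached 12.8-fold with its summit in the 3′ UTR exon 6 of the canonical transcript and RUNX1 reached 12.03-fold. Their summits lay 258 bases apart, and the RUNX1 summit had a RUNX motif 3 bases away. The nearest annotated start of any MXD3 transcript lay 647 bases from the PTBP1 summit and 905 bases from the RUNX1 summit. The third peak of each list overlapped none of the other. For PTBP1 it was 9.30-fold in intron 4, and for RUNX1 it was 10.5-fold at the shared start of RAB24, a small GTPase gene, and PRELID1, a mitochondrial lipid transfer gene, with an E-box 25 bases from the summit.

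MXD4 had peaks of both lists, but none in the gene. The gene (ENSG00000123933.17) spans chr4:2247432-2262109 on the minus strand. Its PTBP1 peak, chr4:2241641-2242593, reached 32.0-fold with 54 fragments, and its RUNX1 peak, chr4:2242016-2242522, reached 21.1-fold with 27. These peaks began 4839 and 4910 bases past the end of MXD4, their summits 23 bases apart, at a cluster of 5′ ends that includes POLN, a DNA polymerase gene, and HAUS3, a gene of mitotic spindle assembly. Both peaks in the MXD4 window therefore stood at the starts of other genes.

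MNT, a broadly expressed MAX partner that opposes MYC, had the highest peaks of both lists among the 10 genes. The gene (ENSG00000070444.15) spans chr17:2384073-2401104 on the minus strand. At its 5′ end, the PTBP1 peak chr17:2397761-2402581 was 4821 bases wide and reached 130-fold with 222 fragments, which ranked 36 in the list, above 99.6% of PTBP1 peaks. The RUNX1 peak chr17:2399069-2402260 was 3192 bases wide and reached 95.5-fold with 126 fragments, which ranked 76, above 99.0% of RUNX1 peaks. The summits lay 19 bases apart, 355 and 374 bases upstream of the 5′ end. Both stood on the usual background.

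Within MNT, the lists met at 2 more places. In intron 4, the PTBP1 peak chr17:2392119-2394160 reached 42.4-fold with 72 fragments and the RUNX1 peak chr17:2392327-2393872 reached 30.8-fold with 40, their summits 4 bases apart. In intron 1, PTBP1 reached 16.9-fold and RUNX1 9.77-fold, with summits 136 bases apart. Introns are those of the canonical transcript, and both places lay close to annotated starts of other MNT transcripts. The nearest start lay 220 bases (PTBP1) and 216 bases (RUNX1) from the intron 4 summits. From the intron 1 summits, it lay 164 and 300 bases away. A PTBP1 peak of 9.30-fold in intron 2 overlapped no RUNX1 peak. Windows of 101 bases around the PTBP1 summits (hg38, plus strand) are shown for the peaks at the 5′ end and in intron 4, which had the highest PTBP1 folds of the network. Neither held the E-box CACGTG or a RUNX motif, although the whole PTBP1 peak at the 5′ end held 3 E-boxes and 2 RUNX motifs.
MNT PTBP1 summit at the 5′ end, chr17:2401409-2401509: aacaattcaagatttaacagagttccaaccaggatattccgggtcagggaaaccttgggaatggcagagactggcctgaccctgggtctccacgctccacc
MNT PTBP1 summit in intron 4, chr17:2392930-2393030: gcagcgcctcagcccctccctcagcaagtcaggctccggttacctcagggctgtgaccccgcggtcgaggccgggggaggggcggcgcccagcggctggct

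MGA, a large MAX partner with an added T-box DNA-binding domain, differed between its annotated starts. The gene (ENSG00000174197.19) spans chr15:41621134-41773081 on the plus strand. Near the gene 5′ end, there was a RUNX1 peak alone, chr15:41621718-41622190, at 6.85-fold with 99 fragments on a raised background of 13.6. At the canonical start, the PTBP1 peak chr15:41660420-41660823 reached 15.1-fold with 25 fragments and the RUNX1 peak chr15:41660375-41660699 reached 10.5-fold with 13. Both summits fell in the first exon, in the 5′ UTR, 97 and 62 bases past that start and 35 bases apart. The strongest pair in the window, 29.6-fold for PTBP1 and 31.6-fold for RUNX1, lay past the gene at the 5′ end of MAPKBP1, which encodes a kinase-binding scaffold.

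MLX, the MAX-like partner of the Mondo proteins, had 5 PTBP1 and 3 RUNX1 peaks, all at its start or upstream of it. The gene (ENSG00000108788.12) spans chr17:42567072-42573239 on the plus strand. The PTBP1 peak chr17:42566882-42567905 reached 20.3-fold with 34 fragments and the RUNX1 peak chr17:42566980-42567630 reached 12.8-fold with 16. Their summits lay 360 and 95 bases past the 5′ end, and the 265 bases between them were the widest gap among the network's overlapping pairs. A second PTBP1 peak within 1000 bases of the 5′ end reached 7.56-fold and overlapped no RUNX1 peak. Upstream, overlapping pairs lay at the 5′ ends of COASY, a gene of coenzyme A synthesis, with 12.2-fold for PTBP1 and 15.0-fold for RUNX1, and of HSD17B1-AS1, an antisense RNA gene, with 14.0-fold and 9.02-fold. The outermost PTBP1 peak, at 12.8-fold and 18873 bases upstream, overlapped no RUNX1 peak.

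Over all 10 genes, the lists overlapped to different degrees when counted from each side. A RUNX1 peak met 15 of the 27 PTBP1 peaks (55.6%), with 1 shared base enough, beside 49.2% over the whole list. Conversely, PTBP1 met 15 of the 18 RUNX1 peaks (83.3%), beside 60.2%. Leaving out MYCL, these shares came to 72.2% (18 PTBP1 peaks) and 81.3% (16 RUNX1 peaks). The 15 pairs had a median summit distance of 82 bases, beside 84 bases over all 4691 pairs. A distance of at most 50 bases was found in 7 of the 15, against 35.7% of all pairs.

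**Figure D4:**
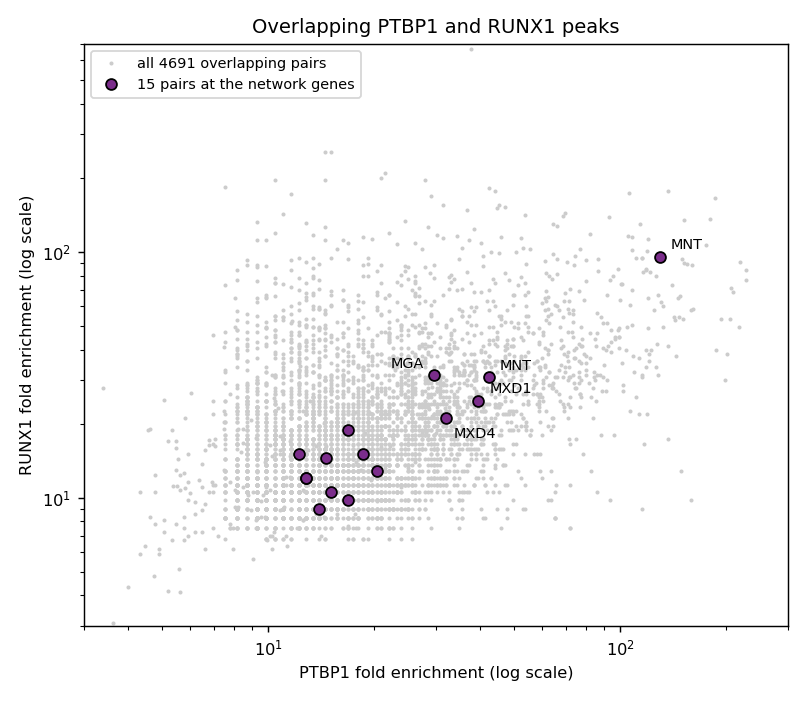
Each point is 1 overlapping pair, with PTBP1 fold enrichment on the horizontal and RUNX1 fold enrichment on the vertical axis (both log scale). Grey points are all 4691 pairs and purple points the 15 at the network genes, of which those of MYC and of the middle of MXD3 coincide, and the pair at the 5′ end of MNT is the highest of the 15 on both axes.

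Peak strength within the network was close to that of the lists. The median fold was 12.8 for its PTBP1 peaks, with a range from 4.51 to 130, beside the list median of 12.2. The RUNX1 peaks had a median of 14.8 and a range from 6.85 to 95.5, beside 15.0. PTBP1 peaks that overlapped a RUNX1 peak had a median of 16.9, and the other PTBP1 peaks of the network 9.30. Most of those other peaks lay in the MYCL window, and the same split was not computed over the whole list. Peaks at the gene 5′ ends had a median of 16.6 for PTBP1 and 13.7 for RUNX1, and the remaining peaks 12.8 and 16.9.

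**Figure D5:**
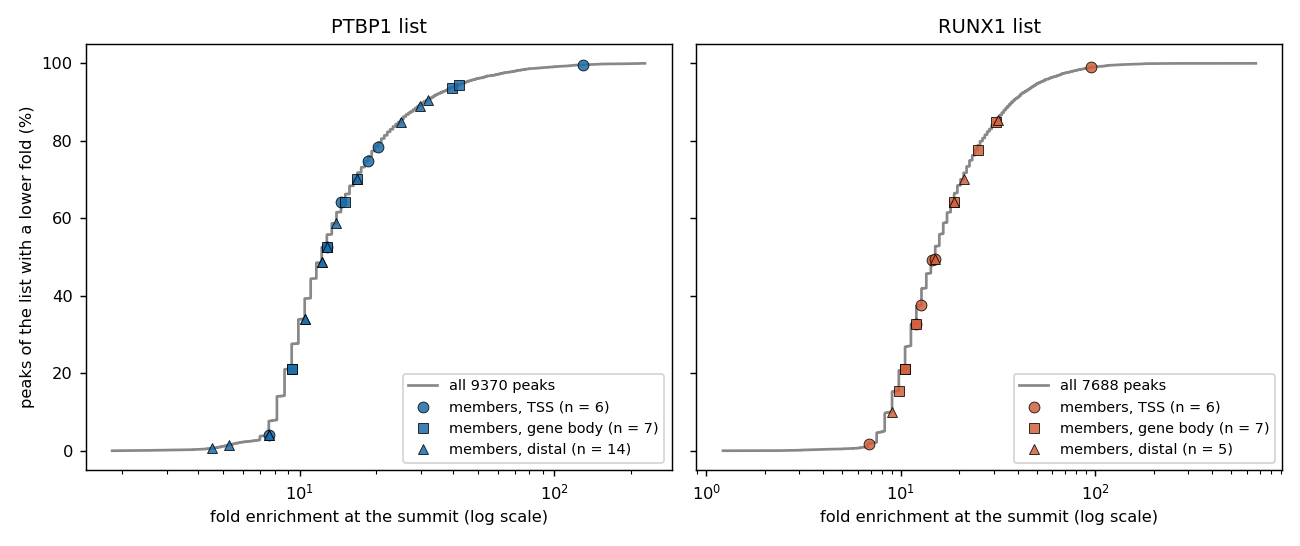
The grey curves give, for each fold enrichment (horizontal axis, log scale), the share of peaks in the list with a lower fold (%, vertical axis), for PTBP1 on the left and RUNX1 on the right. Circles, squares and triangles mark the network's peaks at the gene 5′ end, in the gene body and outside the gene, which spread along both curves, with MNT near the top of each at 130-fold and 95.5-fold.

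The E-box CACGTG, the site bound by MYC with MAX and by MXD proteins with MAX, lay at few summits. It was found within 50 bases of 0 of the 27 PTBP1 summits, beside 3.11% of the list. For RUNX1, it was found at 2 of the 18 summits (11.1%), beside 2.64%. These were the MGA peak on a raised background and the peak in the MXD3 window at the start of RAB24 and PRELID1. A RUNX motif lay within 50 bases of 1 PTBP1 summit, beside 8.79% of the list, and of 2 RUNX1 summits, in MAX and near the middle of MXD3, beside 24.2%. Over whole peaks, a RUNX motif was present in 18 of the 27 PTBP1 peaks (66.7%), beside 46.5% of the list. It was present in 12 of the 18 RUNX1 peaks (66.7%), beside 60.9%. With TGTGGT alone, the whole-peak shares were 48.1% for PTBP1, beside 32.5%, and 38.9% for RUNX1, beside 44.3%. The order against the list thus depended on the stretch searched and, for RUNX1, on the motif. Whole-peak shares also depend on peak width, which was not matched. A run of at least 12 pyrimidines on either strand was found at 5 PTBP1 summits (18.5%, beside 14.7%) and at 1 RUNX1 summit (5.56%, beside 17.0%). The windows of the network had a median GC content of 61.4% at PTBP1 summits, beside 65.3%, and of 70.8% at RUNX1 summits, beside 62.4%. With so few windows, a count of 1 more or fewer would move these shares visibly.

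Promoter sequence was read from RefSeq (GRCh38.p14), from 250 bases before to 50 after each annotated start, for 9 of the genes, which gave 12 windows; MYC had no entry. An E-box was present in 3 of the 12, those of MXD4, MNT and MLX, and in 7.26% of all 35116 promoter windows. A RUNX motif was present in 3 of the 12, 1 of MXD3 and 2 of MGA, and in 19.6% of all. Stretches outside annotated exons are shown on the strand of the gene, with the E-box in capitals, because they cover genes whose starts carried both peaks (MNT, MLX and MXD1) and 1 that carried neither (MXD4). The E-box began at position -193 in MNT, -50 in MLX and -238 in MXD4, counted from the RefSeq start, and the MXD1 stretch, which starts 250 bases before the canonical start, held none. An E-box was thus present at a start with the highest peaks and at a start with no peak.
MNT, chr17:2401105-2401310, minus strand: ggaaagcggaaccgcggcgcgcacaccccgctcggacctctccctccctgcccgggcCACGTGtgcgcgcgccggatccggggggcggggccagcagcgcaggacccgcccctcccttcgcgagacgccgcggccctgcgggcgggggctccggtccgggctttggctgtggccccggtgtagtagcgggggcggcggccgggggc
MLX, chr17:42566850-42567071, plus strand: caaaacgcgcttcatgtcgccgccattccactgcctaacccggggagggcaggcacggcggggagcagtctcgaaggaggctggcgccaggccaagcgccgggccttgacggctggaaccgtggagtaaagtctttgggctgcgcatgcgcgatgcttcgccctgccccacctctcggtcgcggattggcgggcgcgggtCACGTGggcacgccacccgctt
MXD4, chr4:2262110-2262359, minus strand: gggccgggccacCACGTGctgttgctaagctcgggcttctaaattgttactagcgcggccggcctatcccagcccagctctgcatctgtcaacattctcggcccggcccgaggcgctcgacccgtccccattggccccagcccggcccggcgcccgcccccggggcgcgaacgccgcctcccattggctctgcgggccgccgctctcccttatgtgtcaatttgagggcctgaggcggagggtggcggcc
MXD1, chr2:69914859-69915040, plus strand: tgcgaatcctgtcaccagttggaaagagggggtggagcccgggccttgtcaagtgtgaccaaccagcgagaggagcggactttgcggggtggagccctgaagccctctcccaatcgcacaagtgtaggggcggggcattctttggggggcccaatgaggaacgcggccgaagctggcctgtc

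Genes that work with the network were counted at their 5′ ends in the same way. Of the 3 other members of the network, MLXIP, a Mondo partner of MLX, had a PTBP1 peak of 10.5-fold. MXI1 and MLXIPL had none of either list at the 5′ end, and each had 1 RUNX1 peak in the gene. Among 10 cofactors that MYC recruits, 4 had both peaks, 2 had RUNX1 alone and 4 had neither. RUVBL2, an ATPase of chromatin remodelling, reached 52.9-fold for PTBP1 and 24.1-fold for RUNX1, and KAT5, an acetyltransferase, 40.1-fold and 15.0-fold. TRRAP, a scaffold of acetyltransferase complexes, had a RUNX1 peak of 32.3-fold and no PTBP1 peak there.

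Of 8 corepressors used by the MXD proteins and MNT, 4 had a PTBP1 peak and 1 a RUNX1 peak. SIN3A, the scaffold that MXD proteins bind directly, had 2 PTBP1 peaks at its 5′ end, the higher at 106-fold, and RUNX1 peaks in the gene but none at the 5′ end. RBBP4, a histone-binding subunit, had both, at 30.8-fold and 18.0-fold, and the deacetylase gene HDAC1 had a PTBP1 peak of 15.1-fold. Of 7 genes for the turnover of MYC protein, 4 had both peaks, 1 had PTBP1 alone, 1 had RUNX1 alone and 1 had neither. GSK3B, the kinase that marks MYC for degradation, was the highest of these, with 73.2-fold for PTBP1 and 55.6-fold for RUNX1.

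Of 9 genes of the complex that contains MGA, 2 had both peaks, 1 had PTBP1 alone (RING1, a ubiquitin ligase, 18.0-fold), 1 had RUNX1 alone (YAF2, 12.8-fold) and 5 had neither. CBX3, which binds methylated histones, reached 47.7-fold for PTBP1 and 57.9-fold for RUNX1. Of 14 textbook targets of MYC, 4 had both peaks, 1 had PTBP1 alone and 9 had neither. NPM1, a nucleolar chaperone gene often altered in leukemia, reached 45.3-fold for PTBP1 and 15.8-fold for RUNX1. PPAT, of purine synthesis, reached 43.0-fold and 21.1-fold, and ODC1, of polyamine synthesis, reached 32.6-fold and 38.3-fold. These lists are short, and their counts stand beside 26.4% of all protein-coding genes with a PTBP1 peak at the 5′ end and 21.3% with a RUNX1 peak. Both peaks were present there at 17.3% of all protein-coding genes. Shares with 1 list alone or with neither at the 5′ end were not computed over all genes, so those counts are not read as traits.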

How the data were processed

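CUT&Tag and CUT&RUN libraries of MOLM-13 cells were made, per the labels, with antibodies against PTBP1 (Thermo), RUNX1 (Abcam), H3K27me3 (CST) and IgG (CST); the study's antibody list names another supplier, Invitrogen, for RUNX1 in both assays. Per the study's methods, the authors mapped read pairs to hg38 with Bowtie2, kept mapping qualities above 30, deduplicated, and ran MACS3 with a q-value threshold of 1e-07. The submitters' processing notes also name FastQC, cutadapt, SAMtools, Picard and bedtools 2.30.0. The 2 deposited lists name a target but no assay and no replicate; they were read as CUT&Tag lists, and pooling of replicates is not given in the sources used here. Libraries were grouped by target and assay from the labels.

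The deposited fold enrichment is a ratio (summit pileup plus 1 over background plus 1). The deposited -log10 p-value comes from a Poisson model, the deposited -log10 q-value is the authors' adjusted value, and the deposited score is 10 times the latter, cut to a whole number. From fold and p, a whole fragment count and a background were solved for each peak, with a largest difference of 0.00134 in -log10 p. Higher background raises the count that a peak needs, so weak sites drop out. Total depth per library was not used here.

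The members and lists were chosen with earlier results of these data known. Named were all 10 genes with every peak, the genes whose 5′ end such a peak touched, the strongest peaks of the pathway lists and the peaks near MYC. A 5′ end peak came within 1000 bases of it, and overlap needed 1 shared base. Positions are 1-based. No test was made, since each list is 1 sample, and counts are given beside those over all genes or peaks. Neighbouring peaks and shared windows are not independent. Alternatives covered the start-site rule, the flank, the -log10 q threshold, the overlap rule, the motif window, raised backgrounds and MYCL. Another setting left out stretches of 1 Mb with at least 50 PTBP1 peaks. The solving of fragment counts, the E-box search and the placement in exons and introns were tested on simulated data. Tools were Python 3.11.15, matplotlib 3.10.9, scipy 1.17.1, pandas 2.3.3 and numpy 2.4.6. A few sequence windows are not reported here.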

Additional observations from a re-analysis of the deposited data

How the results depend on the processing

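Of 66 alternative settings, 56 left the count within 1.5 times the reported one and 10 moved it further. Of the 66, 55 were planned, and 11, those without raised backgrounds or without MYCL, were chosen after seeing the data. At a -log10 q-value of at least 20, 3 genes in place of 5 had both peaks at the 5′ end. The RUNX1 peaks of MYC (18.0) and MLX (19.7) fell short of it. At that setting, the PTBP1 peaks fell from 27 to 16 and the RUNX1 peaks from 18 to 11. Of these, 8 in place of 15 peaks of each list overlapped. Without flanks, 12 PTBP1 peaks were left. An E-box was found in 4 windows of 100 bases either side and in 10 whole peaks, in place of 2. A RUNX motif was found in 9 and in 30, in place of 3. These motif counts add both lists, so a site in overlapping peaks counts in each. E-box shares at 100 bases were 7.41% for PTBP1 and 11.1% for RUNX1, beside 6.39% and 5.80% of all peaks. In whole peaks they were 18.5% and 27.8%, beside 21.0% and 17.3%. RUNX motif shares at 100 bases were 14.8% and 27.8%, beside 16.5% and 36.6%. In whole peaks they were 66.7% and 66.7%, beside 46.5% and 60.9%. The changed counts follow from the construction of the settings, which drop weaker or outer peaks or search longer sequence. Without peaks on a raised background, 4 genes had both peaks at the 5′ end, since the MYCL pair dropped out. No paired analysis was possible because the lists carry no replicate and no test was made. Fragment counts of 11 (PTBP1) and 8 (RUNX1) at the weakest listed summits limited detection.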
